A study of Mus musculus with 23 samples.

Results

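A set of 8 interferon-gamma induced genes was followed in macrophages and Schwann cells (SCs) sorted from mouse neurofibroma and nerve. The genes were chosen by symbol, as 5 GTPases (Gbp3, Gbp5, Irgm1, Igtp and Iigp1) and 3 regulators (Irf1, Irf8 and Socs1), and make up 8 of the 22180 genes measured. Each gene was read from the transcript cluster, the array's set of probes for a gene, with the highest mean over the sorted cells. A single cluster was annotated to 7 of the genes, and Irf8 had 2.

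Interferon-gamma binds a receptor built from Ifngr1 and Ifngr2 chains, which activates the kinases Jak1 and Jak2. The signal reaches gamma-activated sites in promoters and induces the transcription factors Irf1 and Irf8, while GTPases of the guanylate-binding (Gbp) and immunity-related (Irg) families follow and act on the membranes around intracellular pathogens. Socs1 inhibits the Jak kinases and closes the loop, and macrophages are the classical target cell of the cytokine.

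Affymetrix Mouse Gene 2.0 ST arrays were used on RNA of sorted cells to set neurofibroma SCs and macrophages against those of nerve. Macrophages were sorted as F4/80+;CD11b+ cells and SCs as p75+ cells. Neurofibroma cells (4 macrophage and 3 SC arrays) came from 7-month-old Nf1fl/fl;DhhCre mice, in which Cre from the Dhh promoter removes Nf1 in the SC lineage. Mutant nerve cells (5 macrophage and 3 SC arrays) came from 1-month-old mice of the same genotype, whose tissue the array labels call neurofibroma although tumours have not formed at that age per the study. Wild-type nerve cells (3 arrays of each cell type) came from 1-month-old Nf1fl/fl mice without Cre. All groups carry the floxed Nf1 allele. The labels give a mixed C57BL/6 and BALB/c background and the study's methods a C57Bl/6 background. The SCs of Nf1fl/fl;DhhCre mice are labelled Nf1-/- but were a mixture of recombined and unrecombined cells, and the macrophages had kept Nf1. Tissue of several 1-month-old mice was pooled for a sort, and 2 further arrays held a universal control RNA. Array numbers (s4 to s4992) follow the labels. Per the study's text the macrophage sorts were repeated independently, but the labels do not assign arrays to sorts or animals, so the p-values measure the spread between arrays, part of which may be technical.

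The deposited log2 values lay on 2 levels. Array medians over all transcript clusters were 2.92 to 2.97 in the 7-month arrays and 3.74 to 3.86 in the 1-month arrays, with a universal control at each level (3.04 and 3.88). Neurofibroma and nerve are therefore joined by that pair alone, whose 2 arrays correlated at r = 0.967 over genes and differed by a median of -0.63. The marker lists matched the sorts: the mean of 20 macrophage genes was 8.67 to 9.26 in macrophage arrays and 4.16 to 4.91 in SC arrays, and that of 13 SC genes was 3.44 to 5.72 in macrophage arrays and 5.73 to 7.22 in SC arrays. Transcripts of the seminal vesicle (Svs2, Svs4, Svs5 and Svs6) averaged 7.44 and 10.5 in wild-type macrophage arrays s5 and s6, 10.0 and 5.32 in wild-type SC arrays s2 and s3 and 5.92 in neurofibroma SC array s4992, against 1.84 to 2.78 in the other 16 sorted arrays. Mutant SC array s9 had the highest T and NK cell list (mean of 11 genes 4.23, against 2.41 to 3.69 in the other sorted arrays). Where leaving out these arrays changed a call or a direction among the 8 genes or the other genes named, the value without them is given.

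Stretches of the promoters are shown because each of the 7 genes with a promoter sequence held the letters of at least 1 of 2 elements through which interferons act. The 250 bases before each RefSeq start (GRCm38.p6) were searched on both strands for a gamma-activated site (GAS, TTCNNNGAA) and for a core of the interferon-stimulated response element (ISRE, the letters GAAA, any 2 bases and GAAA again, which can overlap itself). GAS letters were found in 7.02% of all 32851 promoters searched in this way and ISRE letters in 2.98%. Capitals mark the motif letters, and the lines run 5′ to 3′ on the strand of the gene.
Gbp3, chr3:142559979-142560034, plus strand: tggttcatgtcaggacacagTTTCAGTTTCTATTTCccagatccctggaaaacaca
Gbp5, chr3:142496749-142496798, plus strand: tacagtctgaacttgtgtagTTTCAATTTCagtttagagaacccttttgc
Irgm1, chr11:48871421-48871470, minus strand: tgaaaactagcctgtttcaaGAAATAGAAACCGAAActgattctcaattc
Igtp, chr11:58199491-58199551, plus strand: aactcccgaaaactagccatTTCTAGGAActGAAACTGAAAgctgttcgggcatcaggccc
Irf1, chr11:53769904-53769952, plus strand: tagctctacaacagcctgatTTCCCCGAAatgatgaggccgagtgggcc
Irf8, chr8:120736167-120736233, plus strand: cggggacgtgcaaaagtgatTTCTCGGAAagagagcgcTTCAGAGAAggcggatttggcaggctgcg
Socs1, chr16:10785584-10785639, minus strand: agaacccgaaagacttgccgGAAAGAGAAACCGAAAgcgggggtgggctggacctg
Gbp3, Irgm1 and Socs1 had 2 overlapping ISRE cores and no GAS, Irf1 had 1 GAS and Irf8 had 2 GAS with no ISRE, and Igtp and Gbp5 had both. In Igtp the 2 motifs lay 2 bases apart in the line shown, and Gbp5 had 2 further GAS outside the stretch shown, at 245 and 52 bases before the start. For Gbp3, Irf1 and Irf8, 2 promoters were listed and the one with motif letters is shown. A match of letters shows no binding, and no promoter of Iigp1 was analysed here.

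**Figure D1:**
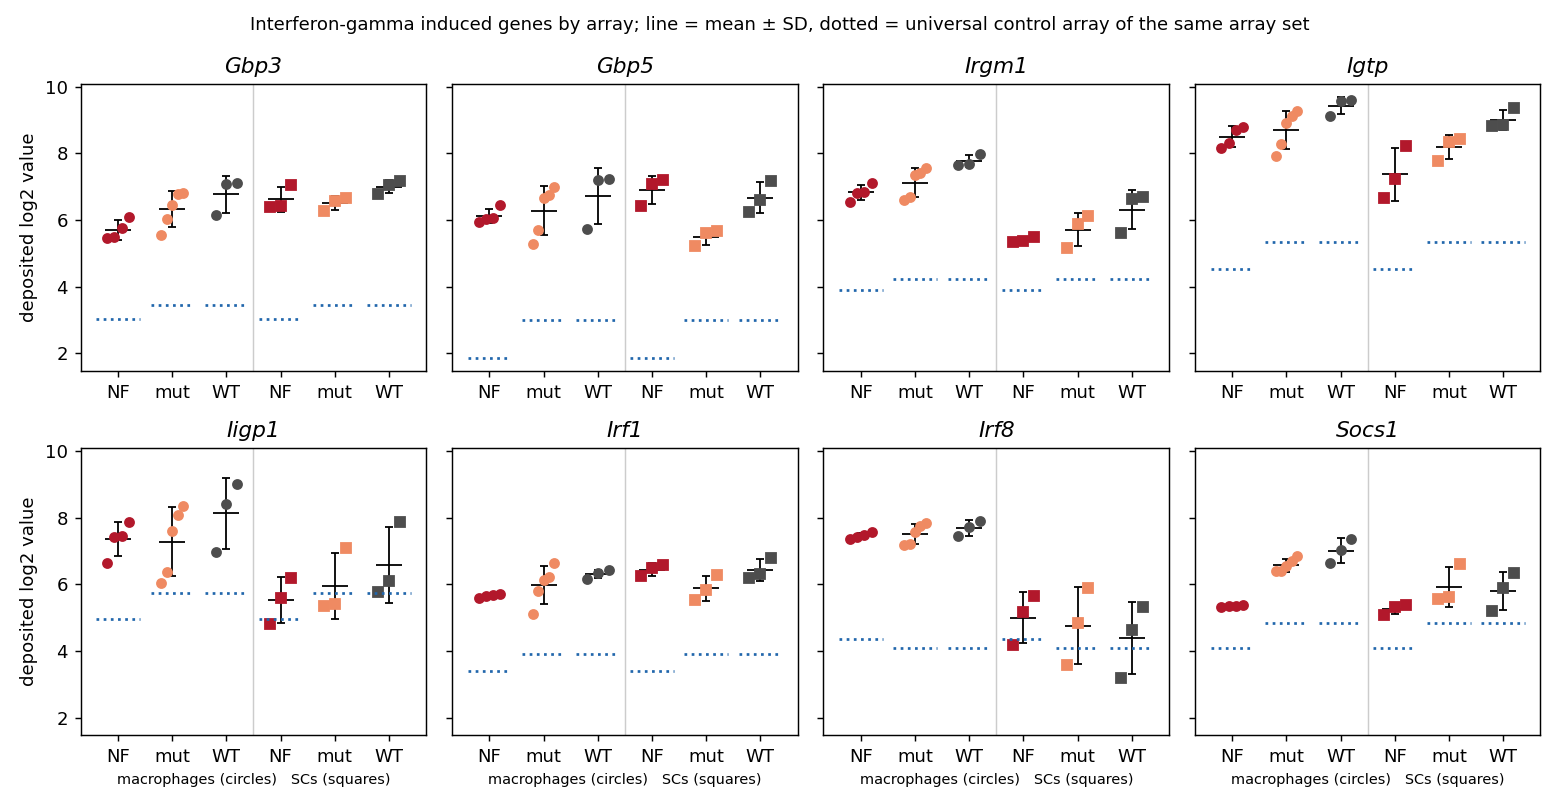
Deposited log2 values of the 8 genes in every sorted array, by group, with neurofibroma left of mutant nerve and mutant nerve left of wild-type nerve, and with the universal control of each array set marked. Irf8 separates macrophages from SCs in all 3 tissues, while Gbp3, Gbp5 and Irf1 overlap between cell types in both nerve tissues.

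The genes lie on chromosome 3 (Gbp3, 142560016 to 142573213, and Gbp5, 142496934 to 142522344), chromosome 11 (Irgm1, 48865245 to 48871420, Igtp, 58199556 to 58207592, and Irf1, 53770014 to 53778374), chromosome 18 (Iigp1, 60373616 to 60392634), chromosome 8 (Irf8, 120736358 to 120756694) and chromosome 16 (Socs1, 10783808 to 10785536). Gbp3 and Gbp5 are members of clustered gene families with similar sequences, as are Irgm1, Igtp and Iigp1, so cross-hybridization between members was not tested.

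The clearest contrast was between the cell types. Within each tissue both cell types were on the same level of the deposited values, so these comparisons do not need the universal controls. Label batch was not balanced in nerve. All mutant macrophage arrays carry batch 1 and SC arrays s8 and s9 batch 2, and of the wild-type arrays s1 alone carries batch 1. On batch 1 arrays alone, which leave mutant SC array s10, the mutant-nerve difference was -0.043 for Socs1 (0.65 on all arrays). For Gbp3 it was 0.062 (-0.17 on all arrays). Of the 8 genes, Irf8, Irgm1, Igtp and Iigp1 were called higher in neurofibroma macrophages than in neurofibroma SCs, Irf8 and Irgm1 in mutant nerve, and Irf8, Irgm1 and Socs1 in wild-type nerve. None was called lower. A call took an adjusted p under 0.05 (limma, Benjamini-Hochberg over 22180 genes) and a fold change above 2, and 5.88%, 5.73% and 4.99% of all genes were called higher in macrophages in neurofibroma, mutant nerve and wild-type nerve, and 6.46%, 7.22% and 8.87% lower. All macrophage arrays lay above all SC arrays for Irgm1, Iigp1 and Irf8 in neurofibroma, Irgm1 and Irf8 in mutant nerve and Irgm1, Irf8 and Socs1 in wild-type nerve, as for 15.6%, 13.5% and 19.9% of all genes, and below them for Gbp3 and Irf1 in neurofibroma, as for 13.9% of all genes. In nerve 0 of the 8 genes lay below in this way, beside 3099 of all 22180 genes in mutant nerve and 18.7% of them in wild-type nerve. In RNA of sorted populations, fewer cells of a type and less RNA per cell cannot be told apart.

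Irf8, a transcription factor required for monocyte and dendritic cell development, had the highest difference of the 8 genes between cell types in each tissue. It read 7.56, 7.41, 7.49 and 7.36 in neurofibroma macrophages (arrays s4441, s4448, s4481 and s4486), against 4.17, 5.17 and 5.66 in neurofibroma SCs (s4481, s4486 and s4992). In mutant nerve it read 7.76, 7.20, 7.20, 7.85 and 7.57 in macrophages (s11 to s15), against 3.57, 5.89 and 4.84 in SCs (s8 to s10). In wild-type nerve it read 7.44, 7.90 and 7.73 in macrophages (s4 to s6), against 3.20, 5.34 and 4.62 in SCs (s1 to s3). The macrophage arrays were tight and lay above every SC array, while SC arrays of a tissue spread widely. The log2 difference was 2.46 in neurofibroma (SE 0.45, 5.49-fold, adjusted p = 2.71e-04), 2.75 in mutant nerve (SE 0.43, 6.73-fold, adjusted p = 4.84e-05) and 3.31 in wild-type nerve (SE 0.49, 9.89-fold, adjusted p = 2.37e-05). The second Irf8 cluster separated the cell types as well, at 5.57 to 5.93 in macrophages and 3.68 to 4.12 in SCs of neurofibroma, with differences of 1.87, 1.96 and 1.83 in neurofibroma, mutant nerve and wild-type nerve (adjusted p = 1.74e-07, 6.31e-08 and 8.40e-07). In SC arrays the macrophage list stood at 4.74, 4.48 and 4.66 in neurofibroma, 4.27, 4.79 and 4.61 in mutant nerve and 4.16, 4.68 and 4.91 in wild-type nerve, and the lowest Irf8 value of both nerve tissues lay in the array with the lowest macrophage list, while that of neurofibroma lay in the array with the highest. The mean of 8 dendritic and B cell genes was 3.06, 2.88 and 3.56 in neurofibroma SC arrays s4481, s4486 and s4992. It was 3.93, 4.54 and 3.89 in mutant-nerve arrays s8 to s10, and 3.64, 4.44 and 4.04 in wild-type arrays s1 to s3. The highest Irf8 value of each tissue lay in the array where this mean was highest, while the lowest values matched in wild-type nerve alone. The part of either list in the SC level of Irf8 was not tested.

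Irgm1, a regulatory GTPase that restrains other Irg proteins on host membranes, was the other gene called in all 3 tissues. It read 7.12, 6.83, 6.83 and 6.56 in neurofibroma macrophages, against 5.36, 5.51 and 5.33 in neurofibroma SCs. In mutant nerve it read 7.56, 6.68, 6.61, 7.36 and 7.40 in macrophages, against 5.88, 6.11 and 5.16 in SCs. Wild-type nerve had 7.65, 7.99 and 7.70 in macrophages, against 6.68, 6.64 and 5.63 in SCs. No SC array reached the lowest macrophage array of its tissue, and the log2 difference was 1.43 in neurofibroma (SE 0.27, 2.70-fold, adjusted p = 3.41e-04), 1.41 in mutant nerve (SE 0.26, adjusted p = 2.62e-04) and 1.46 in wild-type nerve (SE 0.29, adjusted p = 5.80e-04). Irf8 and Irgm1 kept their calls in all 3 tissues when any 1 array was left out, with log2 differences of 2.04 to 3.78 for Irf8 and 1.12 to 1.65 for Irgm1. Without the 5 arrays that carry seminal vesicle transcripts, which left 1 array of each cell type in wild-type nerve, Irgm1 lost its call there (0.97, adjusted p = 0.207) and Irf8 kept it (4.24, adjusted p = 0.00121).

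Iigp1, an effector Irg GTPase that is loaded onto pathogen vacuoles, varied more within groups than any of the other genes in 4 of the 6. It read 7.46, 7.88, 7.41 and 6.65 in neurofibroma macrophages, against 5.59, 4.81 and 6.19 in neurofibroma SCs. In mutant nerve it read 8.08, 6.36, 6.05, 7.59 and 8.34 in macrophages, against 5.35, 7.10 and 5.40 in SCs. Wild-type nerve had 6.96, 8.43 and 9.02 in macrophages, against 5.76, 7.88 and 6.10 in SCs. The groups were apart in neurofibroma alone (log2 difference 1.82, SE 0.62, 3.53-fold, adjusted p = 0.0395) and overlapped in mutant nerve (1.33, SE 0.59, adjusted p = 0.109) and wild-type nerve (1.56, SE 0.66, adjusted p = 0.0851). SC array s9, which reached 7.10, is the array with the highest T and NK list, and without it the mutant-nerve difference was 1.91 (adjusted p = 0.0347). SC array s2, which reached 7.88, is one of those with seminal vesicle transcripts, and without it the wild-type difference was 2.21 (adjusted p = 0.0225). Iigp1 was also called without the lowest macrophage array of either tissue, s13 (1.64, adjusted p = 0.0464) and s4 (2.14, adjusted p = 0.0281). The neurofibroma call was lost without macrophage array s4441, s4448 or s4481 or SC array s4481 or s4486 (1.78, 1.64, 1.80, 1.85 and 1.46, adjusted p = 0.0786, 0.104, 0.0741, 0.0858 and 0.190).

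Igtp, which belongs to the regulatory Irg proteins with Irgm1, read 8.81, 8.72, 8.15 and 8.32 in neurofibroma macrophages, against 7.23, 6.65 and 8.22 in neurofibroma SCs. In mutant nerve it read 9.28, 8.27, 7.92, 8.93 and 9.12 in macrophages, against 8.45, 8.35 and 7.77 in SCs. Wild-type nerve had 9.13, 9.61 and 9.57 in macrophages, against 8.86, 9.35 and 8.82 in SCs. The cell types overlapped in all 3 tissues, in neurofibroma through SC array s4992 and macrophage array s4481. The difference was 1.13 in neurofibroma (SE 0.33, 2.19-fold, adjusted p = 0.0159), 0.51 in mutant nerve (SE 0.32, adjusted p = 0.273) and 0.43 in wild-type nerve (SE 0.36, adjusted p = 0.401). Its call was lost without macrophage array s4441 (1.03, adjusted p = 0.0506) or SC array s4481 (1.06, adjusted p = 0.0618) or s4486 (0.77, adjusted p = 0.150), and without SC array s4992 the difference was larger (1.56, adjusted p = 0.00374).

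Socs1, the feedback inhibitor, read 5.31, 5.38, 5.35 and 5.35 in neurofibroma macrophages, against 5.37, 5.09 and 5.31 in neurofibroma SCs. In mutant nerve it read 6.85, 6.54, 6.40, 6.41 and 6.70 in macrophages, against 5.56, 5.61 and 6.62 in SCs. Wild-type nerve had 6.64, 7.37 and 7.04 in macrophages, against 6.34, 5.88 and 5.21 in SCs. The cell types were on 1 level in neurofibroma and apart in wild-type nerve. The difference was 0.09 in neurofibroma (SE 0.25, adjusted p = 0.918), 0.65 in mutant nerve (SE 0.24, adjusted p = 0.0472, below 2-fold) and 1.21 in wild-type nerve (SE 0.26, 2.31-fold, adjusted p = 0.00152). Without wild-type SC array s3 the last was 0.91 (adjusted p = 0.0143, below 2-fold), without macrophage arrays s5 and s6 it was 0.83 (adjusted p = 0.138), and without all 5 arrays with seminal vesicle transcripts 0.30 (adjusted p = 0.693).

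Gbp3, Gbp5 and Irf1 were the genes whose neurofibroma differences ran the other way. Gbp3, a guanylate-binding protein, read 6.09, 5.78, 5.47 and 5.48 in neurofibroma macrophages, all below the 7.07, 6.41 and 6.41 of neurofibroma SCs (log2 difference -0.92, SE 0.28, adjusted p = 0.0205, below 2-fold). Irf1, the first transcription factor of the response, read 5.71, 5.65, 5.58 and 5.68 in neurofibroma macrophages, all below the 6.60, 6.50 and 6.24 of neurofibroma SCs (-0.79, SE 0.25, adjusted p = 0.0268, below 2-fold). Gbp5, which in mice and humans promotes inflammasome assembly, read 6.45, 6.05, 5.96 and 6.04 in neurofibroma macrophages, against 7.08, 7.20 and 6.44 in neurofibroma SCs (-0.78, SE 0.38, adjusted p = 0.181). The groups did not overlap for Gbp3 and Irf1, as for 13.9% of all genes in this direction, and overlapped for Gbp5, where macrophage array s4441 lay above SC array s4992. Gbp3 passed 2-fold without macrophage array s4441 (-1.05, adjusted p = 0.0145) or SC array s4486 (-1.03, adjusted p = 0.0281) or s4992 (-1.03, adjusted p = 0.0265). In both nerve tissues the 3 genes overlapped between cell types. Differences were -0.17 for Gbp3, 0.79 for Gbp5 and 0.10 for Irf1 in mutant nerve (adjusted p = 0.715, 0.124 and 0.824), and -0.23, 0.05 and -0.12 in wild-type nerve (adjusted p = 0.612, 0.942 and 0.778). Without mutant macrophage array s12, Gbp5 was called higher in mutant nerve (1.04, adjusted p = 0.0287).

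**Figure D2:**
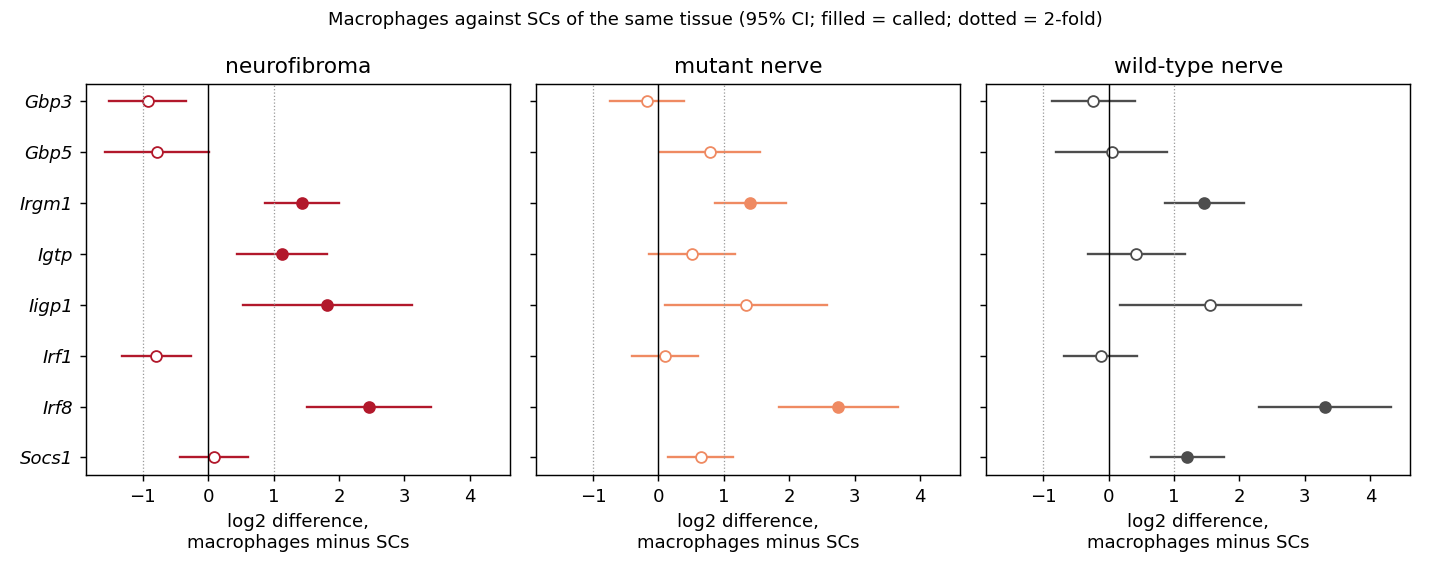
Log2 difference of each gene, macrophages over SCs, with its 95% confidence interval from the limma fit, in neurofibroma, mutant nerve and wild-type nerve. Irf8 and Irgm1 lie above 0 in all 3 tissues, and Gbp3 (-0.92) and Irf1 (-0.79) lie below 0 in neurofibroma.

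The pathway upstream of the 8 genes was compared in the same way. Ifng itself was low in every sorted array (2.41 to 2.67 in neurofibroma, where the 25th percentile of all genes was 2.21, and 3.09 to 3.44 in nerve, where it was 2.98), with differences between cell types of -0.04 in neurofibroma, -0.09 in mutant nerve and 0.11 in wild-type nerve. Ifngr2, the signalling chain of the receptor, was called higher in macrophages in all 3 tissues (1.91 in neurofibroma and 1.07 in wild-type nerve, with mutant nerve between them, adjusted p = 2.18e-10, 2.47e-06 and 4.81e-09), and kept the wild-type call without the 5 arrays that carry seminal vesicle transcripts (1.18, adjusted p = 0.00251). Ifngr1, the ligand-binding chain, was called higher in neurofibroma macrophages (1.14, adjusted p = 4.47e-05, and 0.95 without the 5 arrays, below 2-fold) and not in mutant nerve (0.53, adjusted p = 0.0242, below 2-fold) or wild-type nerve (0.12, adjusted p = 0.680). Jak2 was called higher in neurofibroma macrophages (1.18, adjusted p = 0.00221). Jak1 was lower in macrophages in all 3 tissues with differences below 2-fold (-0.81, -0.82 and -0.90, adjusted p = 1.19e-04, 6.33e-05 and 8.63e-05).

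The wider lists differed in how many of their genes were called between cell types. None of 8 other Gbp genes was called in any tissue (median log2 differences 0.10, -0.04 and -0.04 in neurofibroma, mutant nerve and wild-type nerve, with 0, 1 and 1 at an unadjusted p under 0.05), beside medians of 0.02, 0.00 and 0.06 over all genes. Gbp6 (1.74 to 2.58) and Gbp11 (1.72 to 2.73) lay below the 25th percentile of all genes (2.98) in every nerve array. Gbp8 (1.32 to 1.96) lay below it (2.21) in every neurofibroma array. Little can be read from the lack of calls in such genes, and Gbp2, also listed, was not among the genes measured. Of 3 other Irg genes, 1, 2 and 2 were called higher in macrophages, led by Gm4951 (3.01, 2.67 and 3.96) with Irgm2 in mutant nerve (1.36) and wild-type nerve (1.29). Of 5 other Irf genes, 2, 2 and 3 were called higher, among them Irf7, a transcription factor of the type I interferon response (4.00, 1.99 and 2.37). Of 7 other Socs genes, Cish was called higher in neurofibroma macrophages (1.48), Socs5 lower in all 3 tissues (-1.44, -1.03 and -1.52) and Socs2 lower in mutant nerve (-1.63). Of 21 further interferon-gamma targets, 8, 7 and 7 were called higher and 1, 0 and 1 lower (medians 0.75, 0.64 and 0.72). The highest of them were Cybb, the phagocyte oxidase subunit (6.36, 6.08 and 5.83), Slamf8 (3.89, 4.70 and 4.71), Cd274, which encodes PD-L1 (3.00, 3.16 and 2.76), and Cd40 (2.98, 2.68 and 2.78), while Upp1, a uridine phosphorylase, was the one called lower (-1.63 in neurofibroma and -1.21 in wild-type nerve). The type I interferon genes were called higher in macrophages almost throughout, 15, 14 and 15 of 15 (medians 2.85, 2.00 and 2.45), led by Oasl1, an oligoadenylate synthetase-like protein (4.77, 4.04 and 4.39). Without the 5 arrays, 1 of the 3 other Irg genes, 1 of the 5 other Irf genes, 5 of the 21 further targets and 11 of the 15 type I interferon genes were called higher in wild-type nerve, and Irgm2 (1.16, adjusted p = 0.201) and Irf7 (2.13, adjusted p = 0.107) lost the call there, as did Cish in neurofibroma (1.49, adjusted p = 0.128) and Socs2 in mutant nerve (-1.63, adjusted p = 0.0579). The lists were compiled with earlier results of these data known, so the counts describe them only.

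**Figure D3:**
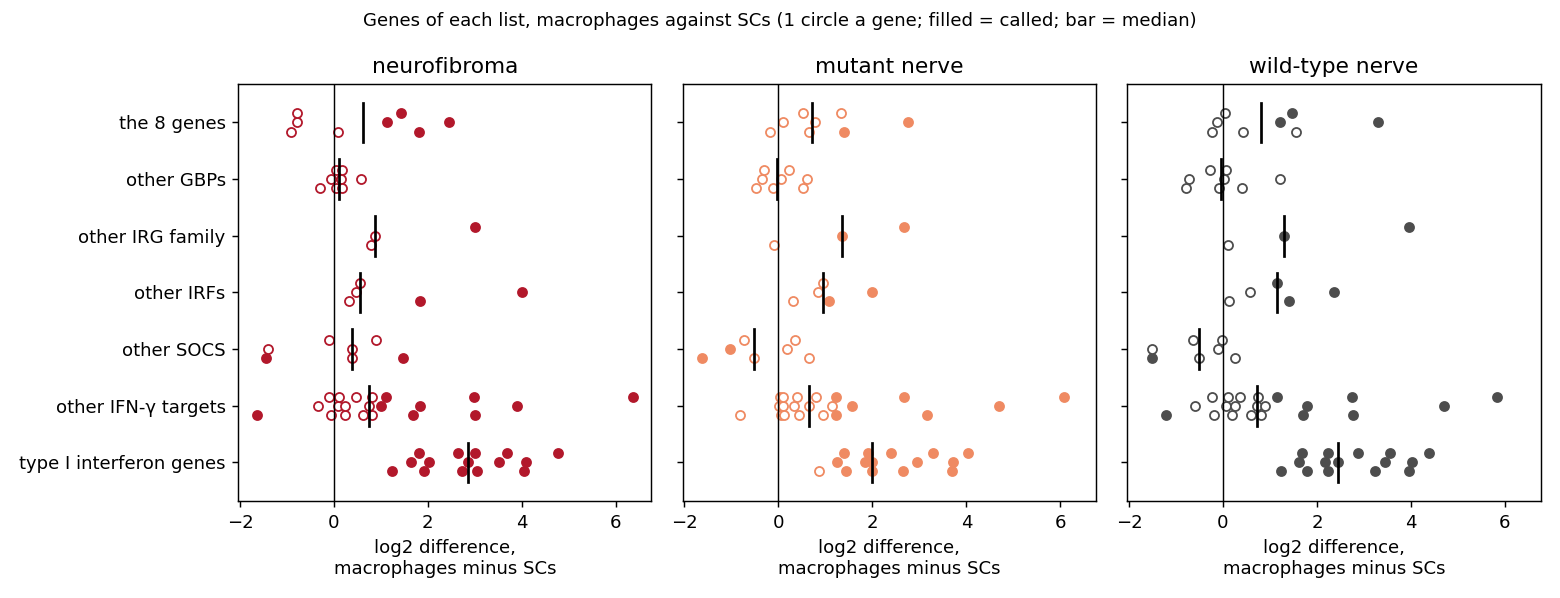
Log2 differences of macrophages over SCs for every measured gene of the 8-gene set and the related lists in neurofibroma, mutant nerve and wild-type nerve, with each list's median as a bar. The type I interferon genes have medians of 2.00 to 2.85, and the other Gbp genes have medians of -0.04 to 0.10. Of the other Gbp genes, Gbp6, Gbp8 and Gbp11 have low values.

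Neurofibroma was then set against nerve within each cell type. None of the 8 genes was called in any of the 4 comparisons when the array set was a term of the fit, which carries the error of the universal control pair. At this setting 0.176% of all genes were called higher and 0.0496% lower in neurofibroma over mutant-nerve macrophages, 0.162% and 0.0451% over wild-type macrophages, 0.167% and 0.0631% over mutant-nerve SCs, and 0.180% and 0.131% over wild-type SCs. At an unadjusted p under 0.05 it was 1 gene, Gbp5 in neurofibroma over mutant-nerve SCs, where 1942 of all 22180 genes were under that p, and 0 in the other comparisons, where 1856 (over mutant-nerve macrophages), 2196 (over wild-type macrophages) and 2190 (over wild-type SCs) were. When ComBat had removed the difference between array sets before limma was fitted within a cell type, which leaves the error of the control pair out, 2.68% and 2.29%, 3.36% and 2.89%, 2.55% and 3.09%, and 2.40% and 4.06% of all genes were called in the same order, and Gbp5 was called in 3 comparisons and Irf1 in 1. Comparisons with mutant and with wild-type nerve share the neurofibroma arrays.

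Gbp5 had the highest estimated difference of the 8 genes in both SC comparisons and in both macrophage comparisons. In SCs it averaged 6.91 ± 0.41 in neurofibroma, 5.49 ± 0.24 in mutant nerve and 6.67 ± 0.47 in wild-type nerve (SD, n = 3 each) as deposited, and the universal control read 1.86 in the 7-month set and 3.01 in the 1-month set. Above the control of its own set that is 5.05, 2.49 and 3.66. The difference of neurofibroma over mutant-nerve SCs was 2.56 (SE 0.81, 5.90-fold, adjusted p = 0.247), or 2.58 after ComBat (SE 0.29, adjusted p = 0.00101). Over wild-type SCs it was 1.38 (SE 0.81, adjusted p = 0.648), or 1.40 after ComBat (SE 0.29, adjusted p = 0.0107). In macrophages it was 0.99 over mutant nerve (SE 0.78, adjusted p = 0.849), or 1.01 after ComBat (SE 0.33, adjusted p = 0.0295), and 0.55 over wild-type nerve (SE 0.80, adjusted p = 0.875). The control pair itself differed by -1.15 for Gbp5, the largest of the 8 genes, so the estimate rests on 2 arrays. Both read low, below the 25th percentile of all genes in the 7-month set (1.86, against 2.21) and near it in the 1-month set (3.01, against 2.98). The estimate over wild-type SCs comes largely from this pair, as deposited means were 6.91 and 6.67, and that over mutant-nerve SCs in part.

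Irf1 averaged 6.45 ± 0.18 in neurofibroma SCs, 5.88 ± 0.37 in mutant-nerve SCs and 6.43 ± 0.32 in wild-type SCs (SD, n = 3 each) as deposited. These values overlapped between mutant-nerve array s8 and neurofibroma array s4992, which stand on different levels (universal control 3.92 and 3.41). Above the control of its own set s8 read 2.36 and s4992 read 2.82, and nothing is read from the overlap. With the set term the difference of neurofibroma over mutant nerve was 1.07 (SE 0.54, adjusted p = 0.596), or 1.09 after ComBat (SE 0.22, adjusted p = 0.0105), and over wild-type nerve 0.52 (SE 0.54, adjusted p = 0.865). Socs1 was the gene with the lowest estimates in macrophages, at 5.35 ± 0.03 in neurofibroma (SD, n = 4), 6.58 ± 0.20 in mutant nerve (SD, n = 5) and 7.02 ± 0.37 in wild-type nerve (SD, n = 3). Every neurofibroma array lay below every nerve array as deposited, on levels that the universal control also shows (4.10 and 4.83). The control pair differed by a median of -0.63 over all genes, and the share of genes separated in this way was not counted. Nothing is therefore read from the separation. The difference was -0.50 over mutant nerve (SE 0.51, adjusted p = 0.899) and -0.94 over wild-type nerve (SE 0.52, adjusted p = 0.585), and after ComBat -0.49 (SE 0.13, adjusted p = 0.0100) and -0.93 (SE 0.15, adjusted p = 4.73e-04), both below 2-fold. The other estimates, of the remaining genes and of Socs1 in SCs, ranged from -0.84 (Igtp in SCs over wild-type nerve) to 0.84 (Iigp1 in macrophages over mutant nerve), with adjusted p of 0.765 or above with the set term.

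**Figure D4:**
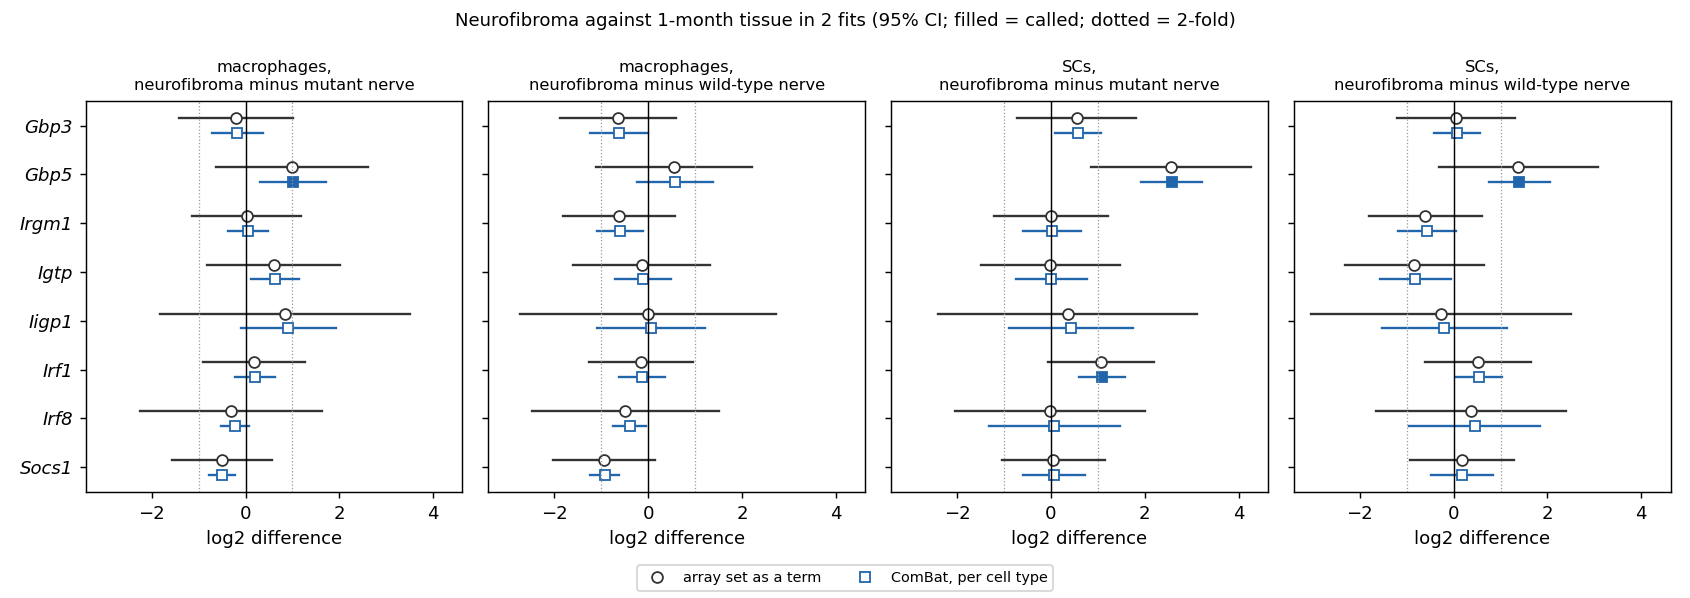
Log2 difference of neurofibroma over mutant nerve and over wild-type nerve for each gene in macrophages and SCs, with 95% confidence intervals, from the fit with the array set as a term and from limma after ComBat. The estimates of the 2 fits lie close together, while the intervals with the set term are wider, as for Gbp5 in SCs over mutant nerve (2.56 and 2.58, SE 0.81 and 0.29).

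Whether the change in neurofibroma differed between the cell types could be asked without the universal controls, since the array set cancels. None of the 8 genes passed the call. Over mutant nerve 0.807% of all genes were called higher and 0.861% lower in this test, and over wild-type nerve 2.20% and 0.884%. The change over mutant nerve was lower in macrophages than in SCs for Gbp5 by an estimated log2 of -1.57 (SE 0.53, limma adjusted p = 0.149) and for Irf1 of -0.89 (SE 0.35, adjusted p = 0.237). The change over wild-type nerve was lower in macrophages than in SCs for Socs1 by -1.11 (SE 0.36, limma adjusted p = 0.0910). These comparisons share the neurofibroma arrays. Irf1 passed the call without mutant macrophage array s13 (-1.11, adjusted p = 0.0354), and Socs1 without mutant SC array s10 (-1.11, adjusted p = 0.0429) or wild-type SC array s1 (-1.38, adjusted p = 0.0382).

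The receptor chains were below an adjusted p of 0.05 in this test over wild-type nerve and not over mutant nerve. The change in neurofibroma over wild-type nerve was higher in macrophages than in SCs for Ifngr1 (1.02, SE 0.26, adjusted p = 0.0332) and Ifngr2 (0.84, SE 0.18, adjusted p = 0.0108, below 2-fold). Without the 5 arrays that carry seminal vesicle transcripts these were 1.11 (SE 0.36, adjusted p = 0.158) and 0.64 (SE 0.27, adjusted p = 0.278). Over mutant nerve the differences were 0.61 for Ifngr1 (SE 0.25, adjusted p = 0.265) and 0.41 for Ifngr2 (SE 0.17, adjusted p = 0.268). Ifngr1 averaged 7.96 ± 0.13 in neurofibroma macrophages (SD, n = 4), 7.45 ± 0.20 in mutant-nerve macrophages (SD, n = 5) and 7.19 ± 0.22 in wild-type macrophages (SD, n = 3), against 6.82 ± 0.33, 6.91 ± 0.37 and 7.06 ± 0.15 in SCs of the same tissues (SD, n = 3 each). The mean of the SC marker list was lower in neurofibroma macrophage arrays (3.44 to 3.67) than in mutant-nerve (4.66 to 5.72) or wild-type macrophage arrays (4.63 to 5.11), as was the array level, and its part in these differences was not tested.

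At 1 month mutant nerve was set against wild-type nerve, before tumours form. In macrophages all 8 estimates were below 0 in mutant nerve (median -0.44, from -0.85 for Iigp1 to -0.17 for Irf8, beside a median of -0.02 over all genes), and none was called. In SCs 6 of 8 were below 0 (median -0.58, beside -0.02 over all genes), with Irf8 (0.38) and Socs1 (0.12) above, and none was called. The percentages called were 0% in either direction in macrophages, with 2741 genes at an unadjusted p under 0.05, and 0% higher and 0.00451% lower in SCs, with 1920 genes at an unadjusted p under 0.05. Of the 8 genes, Irgm1 (-0.66, SE 0.26, adjusted p = 0.312) and Igtp (-0.74, SE 0.32, adjusted p = 0.358) were under that p in macrophages, and Gbp5 (-1.18, SE 0.41, adjusted p = 0.474) and Igtp (-0.82, SE 0.36, adjusted p = 0.526) in SCs. All macrophage arrays of mutant nerve carry the label of batch 1 and those of wild-type nerve that of batch 2, so label batch and genotype cannot be told apart there.

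Single arrays carried much of the spread behind these 1-month values. Wild-type macrophage array s4 was the lowest of its 3 for all 8 genes (Gbp3 6.14, against 7.08 and 7.10 in s5 and s6, and Gbp5 5.74, against 7.20 and 7.22). Arrays s5 and s6 are those with seminal vesicle transcripts, and without them the estimates of mutant over wild-type macrophages turned above 0 for Gbp3 (0.19), Gbp5 (0.54), Iigp1 (0.33) and Irf8 (0.08). In SCs, wild-type array s2 was the highest of its 3 for 6 genes, and Gbp5 read 5.22, 5.60 and 5.67 in mutant nerve, against 6.25, 7.17 and 6.60 in wild-type nerve. Gbp3, Gbp5 and Igtp did not overlap between mutant and wild-type SCs, all lower in mutant nerve, as for 5.46% of all genes, and Irgm1 did not in macrophages, as for 3.85%. In the other direction it was 0 of the 8 genes in each cell type, beside 4.86% of all genes in SCs and 3.10% in macrophages. Among mutant macrophage arrays, s12 and s13 held the lowest value of every gene, and s11, s14 and s15 the 3 highest of each except Socs1. The type I interferon list was lower in the same arrays (7.40 and 7.33 in s12 and s13, against 8.23, 8.05 and 7.98). The further interferon-gamma targets (7.05 and 6.99, against 7.45, 7.43 and 7.52) and the other Gbp genes were lower there too. The mean of dendritic and B cell genes was 4.38 and 4.26, against 4.68, 4.77 and 4.68. Other Irg genes (5.95 and 6.45, against 7.10, 6.53 and 7.06) and other Socs genes (5.29 and 5.11, against 5.67, 5.91 and 6.08) were also lower. So were the upstream pathway (6.99 and 7.01, against 7.10, 7.17 and 7.33) and the macrophage list (9.03 and 9.01, against 9.19, 9.17 and 9.26). The lists of other Irf, SC, and T and NK cell genes did not separate these arrays. Wild-type macrophage array s4 also had the lowest dendritic and B cell mean of its group (4.29, against 4.78 and 4.76). The part of these lists was not tested.

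**Figure D5:**
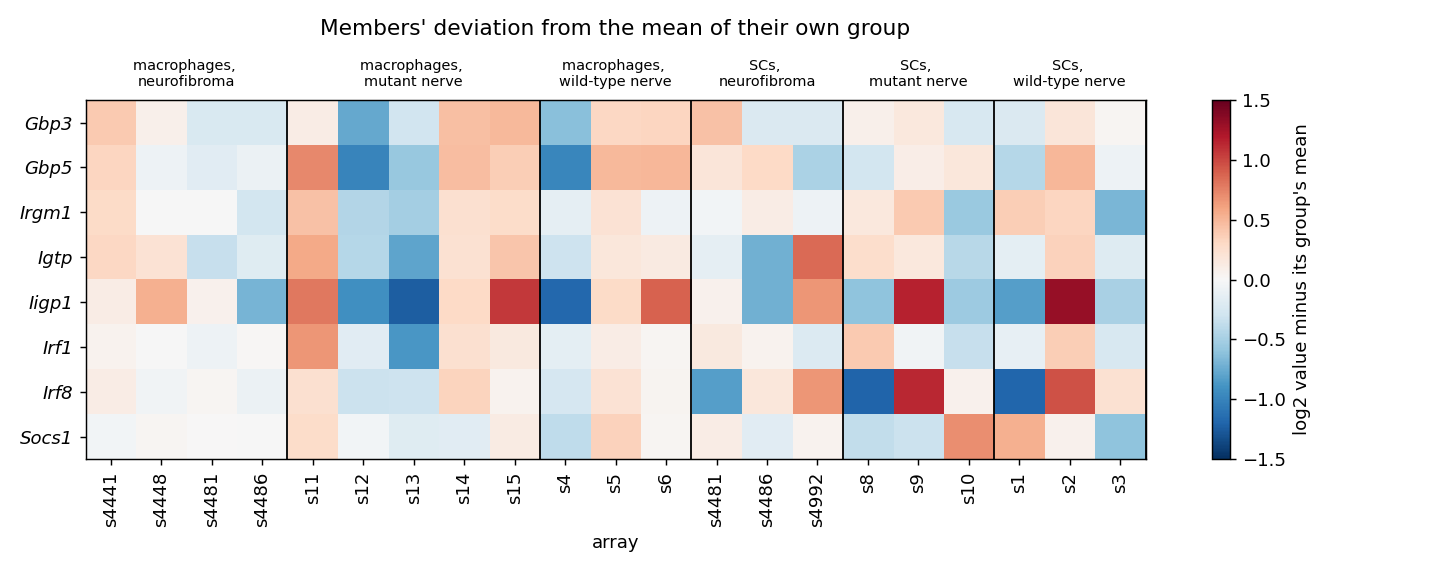
Deviation of each gene from its group mean in every sorted array, in log2 units, by group. Wild-type macrophage array s4 lies below its group mean for all 8 genes, and arrays s12 and s13 are the low pair of mutant-nerve macrophages.

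The genes most like the 8 were ranked by Pearson's r with the mean of the scaled genes, on values above the universal control of the array set. Over the 12 macrophage arrays these were Irgm2 (0.92), Lgals9 (0.91), Il15 (0.91), Cmpk2 (0.90) and Gnb4 (0.90). Among the 8 genes r with their own mean ran from 0.58 (Socs1) to 0.93 (Irgm1) in macrophages. Over the 9 SC arrays the leading genes were Apela (0.95), Nr1h5 (0.93), Olfr309 (0.92), Sppl2a (0.92) and Ear6 (0.92), and r of the 8 genes ran from 0.01 (Socs1) to 0.82 (Iigp1). The arrays of a cell type come from both array sets, and which of them share a sort is not given. Those of 1-month mice come from pooled tissue, and these values are a description.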

How the data were processed

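The authors summarized 23 Affymetrix Mouse Gene 2.0 ST arrays by RMA in Expression Console (version 1.3.1.187, mm10 per the labels) and deposited log2 intensities for 41345 transcript clusters, used here as deposited. Clusters annotated to 1 gene (23521, against 1820 with several and 16004 with none) gave 22180 genes, the cluster with the highest mean over sorted arrays being kept. The number of arrays limits the precision. The study corrected its batches with ComBat, but the deposited values stand on 2 levels that coincide with age and not with the labelled batch, so limma (version 3.58.1, R 4.3.3) was fitted to all 23 arrays with 7 groups and the array set as a term (residual df 15), with Benjamini-Hochberg adjustment over all genes. Calls took a fold change above 2 besides an adjusted p under 0.05. ComBat (parametric form, coded here from its equations rather than run from a package), with limma then run separately on macrophage and SC arrays, was an alternative, as were median centring, quantile normalization, the labelled batch, filters, weights and left-out arrays. Differences are of the first group named over the second. The fit was tested on simulated data. Positions and promoters are from RefSeq GRCm38.p6 (21994 genes matched). The 8 genes and all lists were chosen with earlier results of these data known. Named from each other list were the called genes with the largest differences, at most 4 a comparison, and Ifng, its receptors and Jak kinases. Figures were drawn with matplotlib 3.10.9 in Python 3.11.15.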

Additional observations from a re-analysis of the deposited data

Results flagged for a closer look

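For 4 genes of the pathway lists, the change in neurofibroma differed between macrophages and SCs by the interaction test of limma at an adjusted p under 0.05. Every gene of these lists was screened in both tests of this kind, over mutant and over wild-type nerve, with no fold change criterion. The share of all genes under that p is not given here, so the number of genes is a description. Mx1, an antiviral GTPase of the type I interferon response, differed by 1.44 in the change over mutant nerve (SE 0.34, adjusted p = 0.0300), and its change was 1.09 in macrophages and -0.35 in SCs. Ifngr1 differed by 1.02 in the change over wild-type nerve (SE 0.26, adjusted p = 0.0332), with 1.24 in macrophages and 0.22 in SCs. Ifngr2 differed by 0.84 (SE 0.18, adjusted p = 0.0108), with 1.02 in macrophages and 0.18 in SCs. Socs3, a feedback inhibitor of cytokine receptors, differed by 1.53 (SE 0.42, adjusted p = 0.0427), with 1.05 in macrophages and -0.48 in SCs. Without the 5 arrays that carry seminal vesicle transcripts, Socs3 stayed under an adjusted p of 0.05 (2.49, adjusted p = 0.0429) and passed it over mutant nerve as well (1.71, adjusted p = 0.0264), while Mx1 (1.46, adjusted p = 0.0624), Ifngr1 (1.11, adjusted p = 0.158) and Ifngr2 (0.64, adjusted p = 0.278) did not. None of the changes in one cell type was called with the array set as a term. No single array of the 8 genes stood apart from its group by Dixon's criterion in 16 tests. These covered each gene in neurofibroma macrophages (4 arrays) and mutant-nerve macrophages (5 arrays), and the SC and wild-type groups were not tested.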

How the results depend on the processing

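Irf8 and Irgm1 kept their calls between the cell types under the alternatives of the fit and with any 1 array left out, except Irgm1 in wild-type nerve without the 5 arrays that carry seminal vesicle transcripts, a setting chosen after seeing the data. Leaving aside the omission of each array in turn, 283 counts of called genes stayed within 1.5 times the reported one and 19 did not, and 1100 single differences kept their direction and their side of the call, 26 gained the call, 6 lost it and 76 changed sign. The comparisons of neurofibroma with nerve depend on how the array sets are joined and on low values. Over all genes, 39 and 11 were called higher and lower in neurofibroma over mutant-nerve macrophages, 36 and 10 over wild-type macrophages, 37 and 14 over mutant-nerve SCs and 40 and 29 over wild-type SCs with the set term. In the same order this was 594 and 509, 746 and 640, 566 and 686, and 533 and 901 after ComBat, 779 and 306, 1480 and 294, 1084 and 488, and 778 and 675 with arrays centred on their medians, 342 and 436, 418 and 525, 348 and 643, and 362 and 792 after quantile normalization, 84 and 24, 103 and 42, 64 and 42, and 67 and 81 with array weights, and 1 and 2, 0 and 5, 9 and 7, and 6 and 11 with the filter on low values, which left 18285 genes. With groups of 1 cell type alone it was 62 and 22 over mutant-nerve macrophages, 1 and 2 over mutant-nerve SCs and 1 and 3 over wild-type SCs. The cell-type difference in the change over wild-type nerve had 488 and 196 such genes, against 327 and 251 after quantile normalization and 194 and 86 without the 5 arrays, and that over mutant nerve had 179 and 191, against 106 and 84 with the labelled batch as a term. Ifng lay near the 25th percentile of all genes, so little can be read from its differences.

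Arrays s4481 and s4486 name a macrophage and an SC array each, whose deviations from the group means correlated at 0.0498 and 0.107. In both cases the SC array of the same number was the one most alike, but whether a number stands for 1 animal is not given, so the arrays were not treated as pairs. With the replicate block (correlation 0.0983) the 8 genes had 4, 2 and 3 calls higher in macrophages in neurofibroma, mutant nerve and wild-type nerve, as without it, and Irf8 differed by 2.47 in neurofibroma.

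After ComBat, 1 of the 8 genes was called higher in neurofibroma over mutant-nerve macrophages, 2 over mutant-nerve SCs and 1 over wild-type SCs, in place of 0 each. With arrays centred on their medians it was 3 higher over mutant-nerve SCs (Gbp3, Gbp5 and Irf1) and 2 over wild-type SCs (Gbp5 and Irf8), and after quantile normalization 2 and 1 higher (Gbp5 and Irf1, and Irf8), with 1 called lower in neurofibroma over wild-type macrophages (Socs1, -1.11) and 1 over wild-type SCs (Igtp, -1.12). Quantile normalization left 2 of the 4 genes called higher in macrophages over SCs of neurofibroma. Without the 5 arrays that carry seminal vesicle transcripts, 1 gene was called lower there in place of 0 (Gbp3), and 1 in place of 3 was called higher in wild-type nerve (Irf8). With no fold change criterion 2 were called lower in neurofibroma macrophages over SCs (Gbp3 and Irf1). The shares of all genes called between cell types at these settings are not given here, so nothing is read from these changes in count. With the labelled batch as a term (Socs1, -1.42) or array weights (-1.21), 1 gene in place of 0 was called lower in the cell-type difference in the change over wild-type nerve. With the unadjusted p, 1 in place of 0 was called lower in each of the 2 cell-type differences (Gbp5 and Socs1), 1 higher in neurofibroma over mutant-nerve SCs and 1 lower in mutant over wild-type SCs (Gbp5 in both).

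None of the differences whose sign turned was called under the alternative, and the cause was not tested. After ComBat the sign turned for Iigp1 (0.065) in neurofibroma over wild-type macrophages and Igtp (0.0092), Irf8 (0.072) and Irgm1 (0.030) in neurofibroma over mutant-nerve SCs. With arrays centred on their medians the sign turned for Gbp3 (0.27) and Irf8 (0.83) in neurofibroma over mutant-nerve macrophages, Igtp (0.037), Iigp1 (0.19), Irf1 (0.32), Irf8 (0.74) and Irgm1 (0.029) in neurofibroma over wild-type macrophages, Igtp (0.13), Irf8 (1.18) and Irgm1 (0.63) in neurofibroma over mutant-nerve SCs, Irgm1 (-0.027) in the cell-type difference in the change over mutant nerve and Irgm1 (0.044) in the cell-type difference in the change over wild-type nerve. After quantile normalization the sign turned for Irf8 (0.45) in neurofibroma over mutant-nerve macrophages, Gbp5 (-0.16) and Irf8 (0.19) in neurofibroma over wild-type macrophages, Irf8 (1.08) and Irgm1 (0.38) in neurofibroma over mutant-nerve SCs, Irf1 (0.075) in macrophages over SCs of wild-type nerve, Irgm1 (-0.14) in the cell-type difference in the change over mutant nerve and Iigp1 (-0.025) in the cell-type difference in the change over wild-type nerve. With the labelled batch as a term the sign turned for Igtp (0.29), Iigp1 (1.02), Irf1 (0.20) and Irf8 (0.35) in neurofibroma over wild-type macrophages, Igtp (0.27), Irf8 (0.54), Irgm1 (0.10) and Socs1 (-0.56) in neurofibroma over mutant-nerve SCs, Iigp1 (0.41) and Socs1 (-0.44) in neurofibroma over wild-type SCs, Iigp1 (0.18), Irf1 (0.022) and Irf8 (0.66) in mutant over wild-type macrophages, Gbp3 (0.053) in macrophages over SCs of mutant nerve, Gbp5 (-0.012) in macrophages over SCs of wild-type nerve, Iigp1 (-0.20), Irgm1 (-0.068) and Socs1 (0.055) in the cell-type difference in the change over mutant nerve and Irgm1 (0.020) in the cell-type difference in the change over wild-type nerve. On batch 2 arrays alone the sign turned for Irf8 (-0.25) in mutant over wild-type SCs and Gbp5 (-0.16) in macrophages over SCs of wild-type nerve. On batch 1 arrays alone the sign turned for Gbp3 (0.062) and Socs1 (-0.043) in macrophages over SCs of mutant nerve. With array weights the sign turned for Irgm1 (0.045) and Socs1 (-0.034) in neurofibroma over mutant-nerve SCs and Irf8 (0.089) and Irgm1 (-0.021) in the cell-type difference in the change over mutant nerve. With the clusters of a gene averaged the sign turned for Irf8 (-0.10) in neurofibroma over wild-type SCs. Without wild-type macrophage arrays s5 and s6 the sign turned for Igtp (0.17) and Iigp1 (1.17) in neurofibroma over wild-type macrophages, Gbp3 (0.19), Gbp5 (0.54), Iigp1 (0.33) and Irf8 (0.077) in mutant over wild-type macrophages, Gbp5 (-0.93) in macrophages over SCs of wild-type nerve and Gbp5 (0.15) and Irgm1 (0.10) in the cell-type difference in the change over wild-type nerve. Without the 5 arrays that carry seminal vesicle transcripts the sign turned for Igtp (0.17) and Iigp1 (1.17) in neurofibroma over wild-type macrophages, Irgm1 (0.035) in neurofibroma over mutant-nerve SCs, Iigp1 (0.22) and Socs1 (-0.39) in neurofibroma over wild-type SCs, Gbp3 (0.19), Gbp5 (0.54), Iigp1 (0.33) and Irf8 (0.077) in mutant over wild-type macrophages, Iigp1 (0.19) and Socs1 (-0.41) in mutant over wild-type SCs, Gbp5 (-0.51) in macrophages over SCs of wild-type nerve, Irf8 (0.038) and Irgm1 (-0.0069) in the cell-type difference in the change over mutant nerve and Irgm1 (0.43) in the cell-type difference in the change over wild-type nerve.

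Leaving out each array in turn gave 2 to 4 called higher in macrophages over SCs of neurofibroma, 0 to 1 called lower in macrophages over SCs of neurofibroma, 0 to 1 called lower in the cell-type difference in the change over mutant nerve and 0 to 1 called lower in the cell-type difference in the change over wild-type nerve. In neurofibroma over mutant-nerve macrophages it gave Irf1 -0.037 to 0.35 and Irgm1 -0.10 to 0.14. In neurofibroma over wild-type macrophages it gave Iigp1 -0.60 to 0.43. In neurofibroma over mutant-nerve SCs it gave Igtp -0.44 to 0.34, Irf8 -0.62 to 0.55, Irgm1 -0.28 to 0.20 and Socs1 -0.13 to 0.40. In neurofibroma over wild-type SCs it gave Gbp3 -0.18 to 0.15, Iigp1 -0.68 to 0.38, Irf8 -0.23 to 0.84 and Socs1 -0.13 to 0.44. In mutant over wild-type SCs it gave Iigp1 -1.20 to 0.023, Irf8 -0.21 to 0.98 and Socs1 -0.22 to 0.39. In macrophages over SCs of mutant nerve it gave Gbp3 -0.29 to 0.019 and Irf1 -0.071 to 0.32. In macrophages over SCs of wild-type nerve it gave Gbp3 -0.39 to 0.085, Gbp5 -0.20 to 0.54 and Irf1 -0.24 to 0.062. In the cell-type difference in the change over mutant nerve it gave Iigp1 -0.090 to 0.82, Irf8 -0.86 to 0.30 and Irgm1 -0.17 to 0.31. In the cell-type difference in the change over wild-type nerve it gave Iigp1 -0.39 to 0.71 and Irgm1 -0.21 to 0.32.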
